A study of Mus musculus with 6 samples.

Results

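The genes described here encode the machinery of mitosis: cyclins and kinases of mitotic entry, the kinetochore, the spindle checkpoint, spindle motors and proteins of cytokinesis. They were chosen by function, as a list of 50 gene symbols. Of these, 48 had a probe set whose only platform gene symbol was on the list, out of 18193 genes represented in this way. Ccnb1 was not analysed here. No probe set carried the symbol Foxm1x; Foxm1 was measured and is described with other mitotic genes, not counted as a member. Kif15, a spindle kinesin, was read at linear intensities of 5 to 6 on every array, under the low value level of 16 (4 on the log2 scale), and was not tested. The remaining 47 genes lay above that level on all 6 arrays, so the filter on low values removed none of them for being low in a single population. They were tested among 10855 genes.

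The arrays compare PICs, the interstitial cells known in the field for expressing PW1, with satellite cells, the resident stem cells of skeletal muscle. Both populations were sorted by flow cytometry on CD34 and Sca1 after digestion of hindlimb muscle; the C57 black 6 mice were 7 to 9 days old, no treatment is named in the labels, and there were 3 arrays per population, called biological replicates. The labels do not say whether animals were pooled or whether equal replicate numbers mark a shared preparation; p-values measure the spread between these arrays. The 8 satellite cell markers were all higher in satellite cells (Pax7 27.7-fold and Myod1 57.4-fold). Of 7 tested PIC and mesenchymal markers, 5 were higher in PICs (Pdgfra 15.1-fold). The others were Peg3, which encodes PW1, and Col15a1. Their log2 differences, PICs minus satellite cells, were only 0.19 and 0.51 (adjusted p = 0.156 and 0.178 by limma). Ly6a, which encodes Sca1, and Cd34 are the genes of the sort itself. Cd34 is among the 5, and Ly6a was not analysed here.

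Mitotic genes are transcribed in a wave late in the cell cycle, so their transcripts mark cells that are preparing to divide or dividing. At the kinetochore, the protein assembly on each centromere, microtubules attach to chromosomes; the checkpoint holds back anaphase until all are attached. The anaphase-promoting complex then marks securin and cyclin B for destruction, separase cuts cohesin, and the central spindle directs the cleavage of the cell. Postnatal satellite cells of growing muscle are known to proliferate and to supply nuclei to fibres. In sorted populations, a smaller share of dividing cells and less transcript per dividing cell cannot be told apart.

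Promoters of many late cell cycle genes carry a short element known as the CHR, with the letters TTTGAA, and upstream CCAAT boxes bound by NF-Y. The MuvB complexes that repress these genes in resting cells and activate them with B-Myb and FoxM1 in cycling cells are known to bind the CHR. Both motifs were searched on both strands in RefSeq promoter windows of 300 bases (250 before and 50 after the start, GRCm38.p6). A part of the motifs in the difference between the populations was not tested. TTTGAA was found for 28 of 42 members with a window (66.7%), against 20.2% of all 27025 genes with a window and 14.0% of the 8824 of them that were tested on the arrays. CCAAT was found for 30 members (71.4%), against 41.1% and 43.0%, and both together for 23 (54.8%), against 7.97% and 5.54%. Related genes held the motifs too: of 51 other mitotic genes with a window 56.9% held TTTGAA, 64.7% CCAAT and 43.1% both, and of 24 DNA replication genes 16.7%, 66.7% and 12.5%. Matches of both motifs that share a letter were not excluded. The windows were not matched for base composition. TTTGAA lay within 50 bases of the start in 26 of the 42 members (61.9%) and in 5.72% of all genes with a window.

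The 120 bases before the start are shown for 5 members that hold both motifs in that stretch and for Pttg1, which differed between the populations in the other direction and whose window held neither. They read 5′ to 3′ on the gene's strand, and capitals mark matches: the CHR letters TTTGAA, which read TTCAAA where the match is on the opposite strand, and the box CCAAT, which then reads ATTGG.
Cdk1, GRCm38.p6 chr10:69352913-69353032, minus strand: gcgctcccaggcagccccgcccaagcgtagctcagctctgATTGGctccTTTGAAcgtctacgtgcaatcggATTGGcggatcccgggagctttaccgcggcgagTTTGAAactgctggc
Cdc20, GRCm38.p6 chr4:118437344-118437463, minus strand: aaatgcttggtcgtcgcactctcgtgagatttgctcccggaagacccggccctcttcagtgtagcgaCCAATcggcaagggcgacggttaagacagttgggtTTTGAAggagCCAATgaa
Top2a, GRCm38.p6 chr11:99024190-99024309, minus strand: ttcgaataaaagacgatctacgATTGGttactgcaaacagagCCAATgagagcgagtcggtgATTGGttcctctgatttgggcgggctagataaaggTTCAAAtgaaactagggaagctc
Espl1, GRCm38.p6 chr15:102296173-102296292, plus strand: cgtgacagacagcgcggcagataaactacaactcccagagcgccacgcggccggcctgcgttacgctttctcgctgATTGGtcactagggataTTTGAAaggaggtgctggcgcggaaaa
Kif11, GRCm38.p6 chr19:37376262-37376381, plus strand: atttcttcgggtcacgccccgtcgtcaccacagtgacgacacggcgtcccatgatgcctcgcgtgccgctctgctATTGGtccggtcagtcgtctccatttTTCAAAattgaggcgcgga
Pttg1, GRCm38.p6 chr11:43425982-43426101, minus strand: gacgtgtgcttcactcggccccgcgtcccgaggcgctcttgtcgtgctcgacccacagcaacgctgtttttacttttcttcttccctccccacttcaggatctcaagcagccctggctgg

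In Cdk1, Cdc20, Top2a, Espl1 and Kif11 the CHR letters lie downstream of at least 1 CCAAT box. The median log2 difference between the populations, PICs minus satellite cells, was -1.86 for the 27 tested members with it and -1.76 for the 13 without. Birc5, Plk4, Mad2l1, Nuf2, Nusap1, Melk and Pttg1 had neither motif in the window. All of these but Pttg1 were called higher in satellite cells, with differences from -1.91 (Nuf2) to -1.07 (Plk4). The windows of 8 of the 50 listed genes were not in the table.

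Mitotic genes were higher in satellite cells almost throughout. Satellite cells had the higher level for 45 of the 47 tested genes and PICs for 0, where a call needs an adjusted p under 0.05 (limma, Benjamini-Hochberg over all genes tested) and a log2 difference of at least 1. Over all genes tested, satellite cells had the higher level in 13.0% and PICs in 16.7% by the same rule. The median log2 difference of the 47 genes, PICs minus satellite cells, was -1.79, or 3.46-fold higher in satellite cells, against a median of -0.04 over all genes. The quartiles of the members were -2.09 and -1.65, a narrower span than the -0.56 and 0.61 of all genes, and 39 of the 47 lay between -2.5 and -1.5. In 46 members all 3 satellite arrays lay above all 3 PIC arrays, as they did for 33.2% of all genes. With the adjusted p alone and no minimum difference, 46 members were higher in satellite cells, against 28.6% of all genes, and 1 was higher in PICs, against 27.6%; 29.8% of all genes were called in one direction or the other. The exception in both counts was Pttg1. Counts by role given below are parts of these counts, and the same shares of all genes apply to them.

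**Figure D1:**
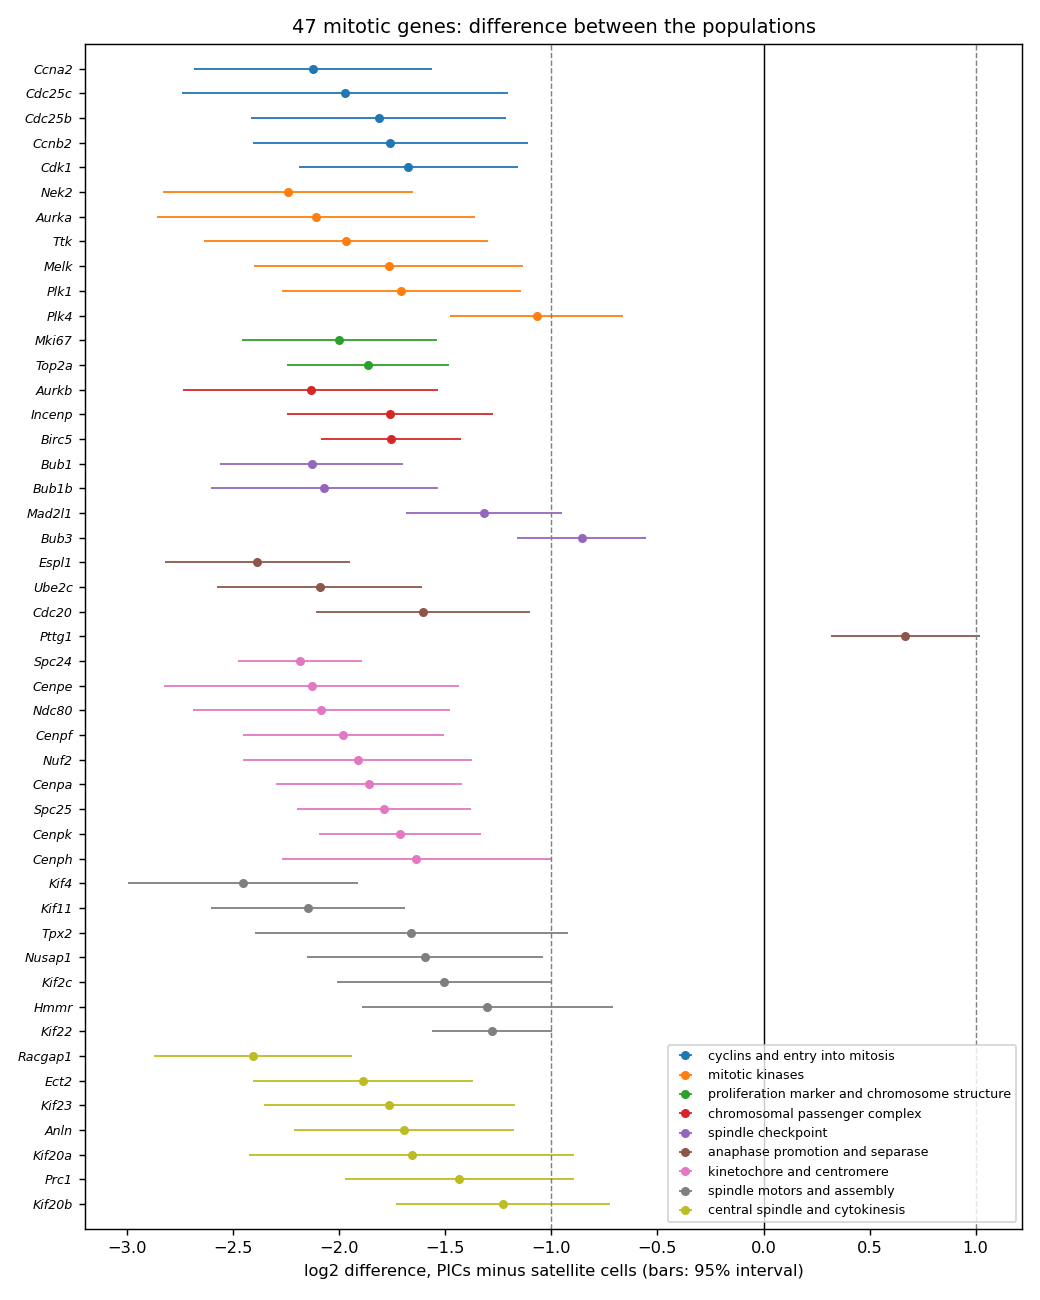
Log2 difference, PICs minus satellite cells, for each of the 47 tested mitotic genes (points) with its 95% interval from limma (bars), coloured by role; dashed lines mark a difference of 1 in each direction. All genes but Pttg1, at 0.67, lie left of 0, and Bub3, at -0.86, is the other gene inside the dashed lines.

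The common markers of cycling cells showed the difference on every array. Mki67, which encodes the Ki-67 protein that coats mitotic chromosomes, had log2 levels of 11.19, 10.80 and 11.07 in PICs and 12.68, 13.12 and 13.26 in satellite cells. Top2a, the topoisomerase that untangles sister chromatids, was at 10.59, 10.76 and 10.62 in PICs and at 12.23, 12.73 and 12.61 in satellite cells. The lowest satellite array exceeded the highest PIC array for both genes, and satellite replicate 1 was the lowest of its population for both. Mki67 differed between the populations with a 95% interval of the log2 difference of -2.46 to -1.54 (adjusted p = 0.00027 by limma), and Top2a was 3.65-fold higher in satellite cells (-2.25 to -1.49, adjusted p = 0.000187 by limma).

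All 5 measured genes of mitotic entry were higher in satellite cells, with a median of -1.81. Ccna2, the A-type cyclin of S phase and early mitosis, differed most: it lay at 9.80, 10.04 and 9.55 in PICs and 11.55, 12.34 and 11.85 in satellite cells, 4.36-fold higher (adjusted p = 0.000458 by limma). Cdk1, the kinase that drives mitosis, lay at 9.88, 10.22 and 10.46 in PICs and 11.52, 11.95 and 12.12 in satellite cells. Its difference of -1.68 (95% interval -2.19 to -1.16) was the smallest of these genes. The intervals of Ccna2 (-2.69 to -1.56) and Cdk1 overlap. Ccnb2, a B-type cyclin, differed by -1.76, and the phosphatases that activate Cdk1, Cdc25b and Cdc25c, by -1.81 and -1.97.

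The 6 mitotic kinases were all called, but by unequal amounts. Nek2, a kinase of centrosome separation, was at 7.54, 7.41 and 7.67 in PICs and 9.24, 9.95 and 10.14 in satellite cells, a difference of -2.24 (95% interval -2.83 to -1.65). Plk1, the Polo kinase of spindle assembly and mitotic exit, was at 7.47, 7.68 and 7.98 against 8.97, 9.64 and 9.64, a difference of -1.71. Plk4, which starts centriole duplication, was at 10.36, 10.54 and 10.82 against 11.43, 11.83 and 11.66, a difference of -1.07 (-1.48 to -0.66). Plk4 was 2.10-fold and Nek2 4.72-fold higher in satellite cells. Another Plk4 probe set differed by -1.44. A further one differed by -1.73, with overlap between the populations, and read lowest on the arrays numbered 3 in both. Without probe sets of the _s_at and _x_at kinds the 95% intervals of Plk4 (-1.83 to -1.05) and Nek2 (-3.05 to -1.46) overlap. Plk4 stood close to the 2-fold threshold. It was not called without PIC replicate 1 (-0.96), without satellite replicate 2 (-0.97) or without both arrays numbered 2 (-0.96). Aurka, the centrosomal Aurora kinase, Ttk, the checkpoint kinase Mps1, and Melk differed by -2.11, -1.97 and -1.77.

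The chromosomal passenger complex, which corrects faulty attachments and guides cytokinesis, was measured for 3 genes. Aurkb, its kinase, was at 8.18, 8.57 and 8.71 in PICs and 10.13, 10.85 and 10.89 in satellite cells, 4.39-fold higher (adjusted p = 0.00058 by limma). Birc5, which encodes survivin, was at 8.69, 8.94 and 8.85 against 10.39, 10.69 and 10.68, 3.38-fold higher, and the scaffold gene Incenp was 3.39-fold higher. No array of one population reached the range of the other for any of these genes. Aurkb was read only by probe sets whose names mark possible hybridisation to related transcripts (_x_at and _s_at).

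The spindle checkpoint genes were divided by size of difference. Bub1, a checkpoint kinase at the kinetochore, was at 8.40, 8.45 and 8.44 in PICs and 10.18, 10.75 and 10.75 in satellite cells, a difference of -2.13. Bub1b, which encodes BubR1, differed by -2.07. Mad2l1, whose product Mad2 binds Cdc20 and blocks it, differed by -1.32 (95% interval -1.69 to -0.95). Bub3, which brings Bub1 and BubR1 to the kinetochore, was at 11.35, 11.33 and 11.54 in PICs and 12.11, 12.29 and 12.38 in satellite cells. Its groups did not overlap and its adjusted p was 0.00148 (limma), but the difference of -0.86 (-1.16 to -0.56) was under the 2-fold threshold. Another Bub3 probe set differed by -1.29, and Bub3 was called on it when probe sets of the _s_at and _x_at kinds were left out (adjusted p = 0.00207 by limma). A further Bub3 probe set, read near the low value level at intensities of 10 to 20, differed by -0.34, with overlap between the populations.

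The genes of the transition to anaphase differed in opposite directions. Espl1, which encodes separase, was at 6.25, 6.52 and 6.60 in PICs and 8.55, 9.11 and 8.86 in satellite cells, 5.23-fold higher (adjusted p = 0.000134 by limma). Pttg1, which encodes securin, the inhibitor and chaperone of separase, was at 11.23, 11.14 and 11.52 in PICs and 10.78, 10.51 and 10.59 in satellite cells. Every PIC array thus lay above every satellite array for Pttg1, and every satellite array above every PIC array for Espl1. Pttg1 was 1.59-fold higher in PICs (difference 0.67, 95% interval 0.32 to 1.02, adjusted p = 0.0083 by limma), under the 2-fold threshold for a call. The direction was the same under each of the 20 alternatives tried, with values from 0.54 to 0.83. The other 2 Pttg1 probe sets above the low value level also lay higher in PICs, by 0.83 with no overlap and by 0.34 with overlap. Cdc20, the activator of the anaphase-promoting complex, was 3.04-fold and Ube2c, its ubiquitin-conjugating enzyme, 4.26-fold higher in satellite cells.

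**Figure D2:**
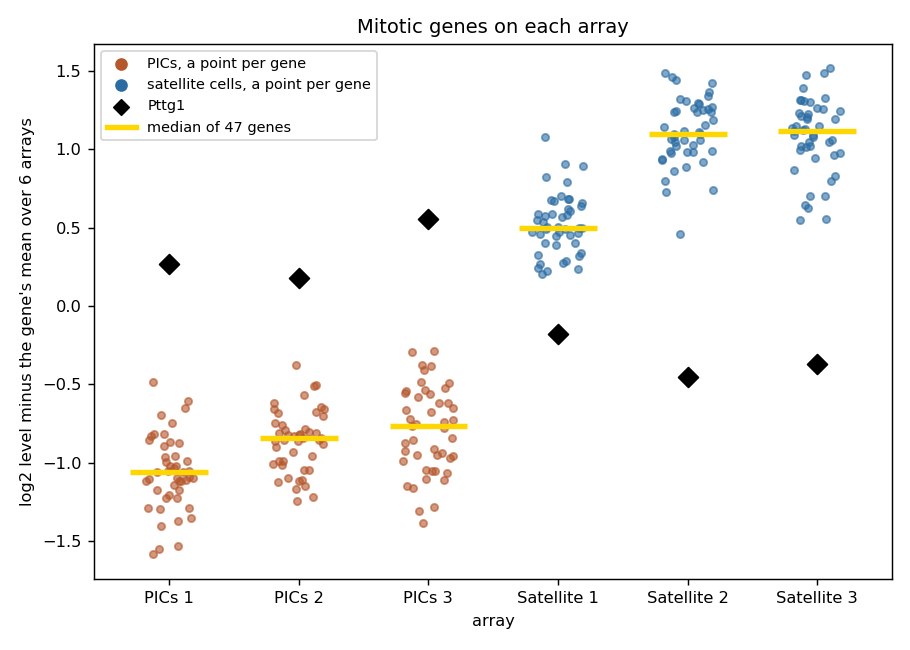
Log2 level of each mitotic gene on each array minus the mean of that gene over the 6 arrays; circles are genes, diamonds are Pttg1 and yellow bars the median of the 47 genes. Circles of the 3 PIC arrays all lie below 0 and those of the 3 satellite arrays above 0, satellite replicate 1 is lower than the other satellite arrays, and Pttg1 runs the other way.

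The 9 kinetochore and centromere genes were all higher in satellite cells, with a median of -1.91. Spc24, a subunit of the Ndc80 complex that grips microtubules, was at 6.98, 6.88 and 6.97 in PICs and 9.11, 9.29 and 8.98 in satellite cells, a difference of -2.19. It had the smallest adjusted p of the 47 genes (6.33e-05 by limma). The other subunits, Ndc80, Nuf2 and Spc25, differed by -2.08, -1.91 and -1.79, so the 4 genes of the complex were 3.46-fold to 4.55-fold higher in satellite cells. Cenpa, the histone H3 variant that marks the centromere, was at 9.46, 9.52 and 9.16 in PICs and 10.99, 11.54 and 11.18 in satellite cells, 3.63-fold higher. The smallest difference was that of Cenph, of the inner kinetochore, at 5.09, 5.58 and 6.00 against 6.87, 7.31 and 7.40 (-1.64, adjusted p = 0.00222 by limma). Cenpk, of the same inner complex, differed by -1.71. The motor Cenpe, which moves chromosomes to the spindle equator, and the large fibrous protein Cenpf differed by -2.13 and -1.98.

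Among spindle motors and assembly factors, all 7 measured genes were higher in satellite cells. Kif4, a chromokinesin that compacts chromosomes and organises the central spindle, had the largest fitted difference of the 47 genes. It was at 5.86, 6.34 and 6.29 in PICs and 8.21, 8.73 and 8.91 in satellite cells, 5.48-fold higher (adjusted p = 0.000235 by limma). Kif22, another chromokinesin, was at 9.06, 9.00 and 9.01 against 10.13, 10.40 and 10.37, 2.43-fold higher. The 95% intervals of Kif4 and Kif22 do not overlap, yet the other probe sets of Kif22 differed by -2.30 and -2.06, nearer to Kif4. Kif11, the motor that separates spindle poles, differed by -2.15. Tpx2, an activator of Aurora A, and Nusap1, a microtubule bundling protein, differed by -1.66 and -1.60. Kif2c, a microtubule depolymerase, was 2.84-fold higher in satellite cells, and Hmmr, a spindle pole protein, differed by -1.30. Tpx2 and Hmmr, with Kif20a of the central spindle, were not called without both arrays numbered 2 (adjusted p = 0.0629, 0.0519 and 0.079 by limma).

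The 7 genes of the central spindle and cytokinesis were also all called. Racgap1, a subunit of the centralspindlin complex, was at 9.15, 9.29 and 9.10 in PICs and 11.18, 11.81 and 11.78 in satellite cells, 5.30-fold higher (adjusted p = 0.00016 by limma). Its partner Kif23 was 3.40-fold higher. The smallest difference was that of Kif20b, at 7.43, 7.75 and 7.37 against 8.34, 8.93 and 8.97 (-1.23, 95% interval -1.73 to -0.72). Ect2, the exchange factor that activates RhoA at the cleavage site, and Anln, a scaffold of the contractile ring, differed by -1.89 and -1.70. Kif20a and Prc1, which bundle and position the midzone, differed by -1.66 and -1.43.

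The choice of probe set changed sizes but not directions. The members had 107 probe sets, of which 82 passed the filter on low values: the 47 used and 35 others, for 25 genes. All 35 others differed in the same direction as the probe set used for their gene. In 30 of them the satellite arrays lay wholly above the PIC arrays, against 32.2% of all probe sets that passed, and in 1, for Pttg1, wholly below. The median difference of the 35 was -1.73. Other probe sets gave larger differences for Racgap1 (-2.90), Bub1 (-2.57), Tpx2 (-2.40) and Kif2c (-2.26). They gave smaller ones for Bub1b (-1.28), Nusap1 (-0.96) and Cenpk (-0.35). These probe sets read near the low value level, at intensities of 9 to 38, 11 to 31 and 18 to 28. The mean of the kept probe sets of Cenpk differed by -1.03.

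The members also varied together within a population. Satellite replicate 1 had the lowest satellite level for 44 of the 47 genes (93.6%), while it was lowest for 40.0% of all genes tested. The median gap between it and the mean of the other satellite arrays was -0.61 for the members and -0.02 for all genes. Spc24 and Cenpk were instead lowest on satellite replicate 3, and Pttg1 was lowest on satellite replicate 2 and highest on satellite replicate 1. In PICs, replicate 1 was lowest for 31 genes (66.0%, against 45.0% of all genes). PIC replicate 3 was highest for 28 (59.6%, against 46.4%) but lowest for 7, namely Cdc25b, Ccna2, Cenpa, Cenpk, Ttk, Kif20b and Racgap1. The mean log2 level over the 47 genes reached 8.47, 8.67 and 8.74 for PICs (8.62 ± 0.14, SD, n = 3) and 10.01, 10.58 and 10.56 for satellite cells (10.39 ± 0.32, SD, n = 3). The gap between the populations, -1.76, was larger than either spread. Taken at equal replicate number, the median difference of the members was -1.61, -1.96 and -1.85 for numbers 1, 2 and 3. Without satellite replicate 1 the median was -1.98 and 45 members were called.

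**Figure D3:**
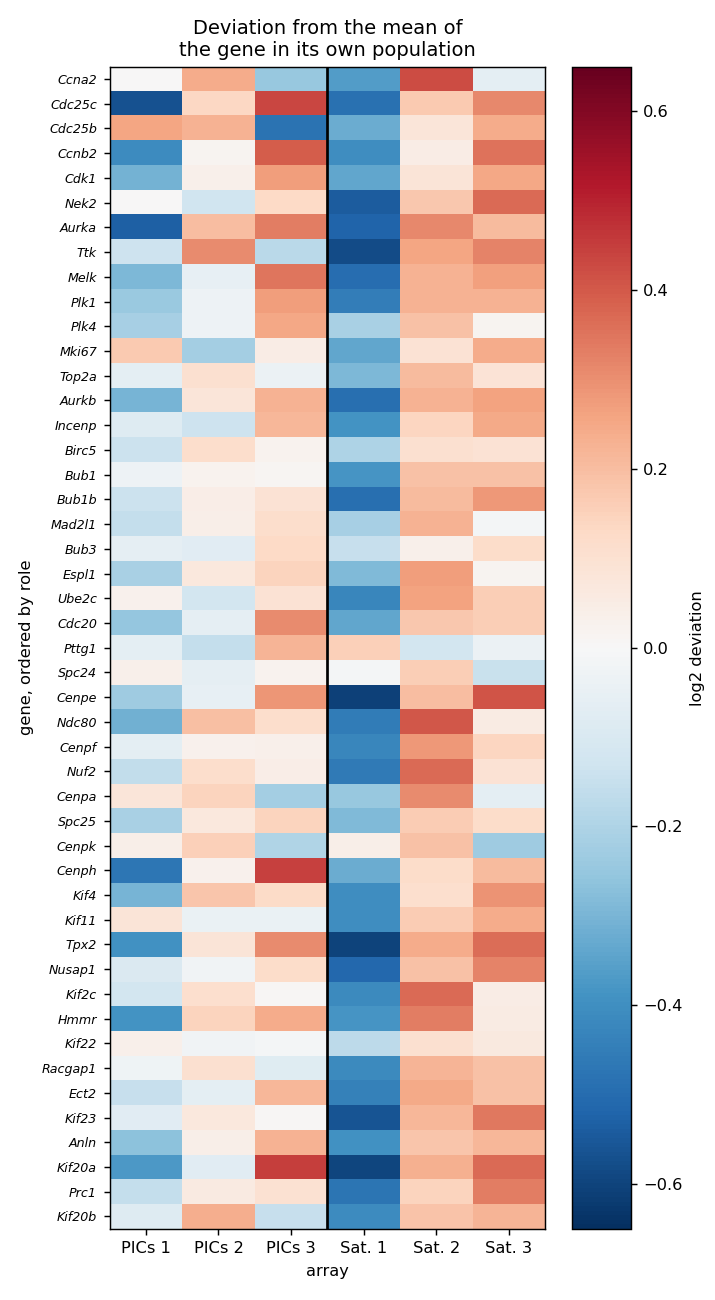
Deviation of each mitotic gene on each array from its mean in that population (log2, colour scale), genes ordered by role. Satellite replicate 1 is below its population mean for nearly all genes, and PIC replicates 1 and 3 differ from gene to gene.

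Haematopoietic and erythroid markers stood out on replicate number 1 in both populations, and other marker lists varied in other ways. The summed linear intensity of 9 haematopoietic markers came to 1655, 251 and 113 for PICs and 2107, 161 and 142 for satellite cells, with Itgam at the low value level throughout. Over the 5 erythroid markers with a probe set the sums were 2734, 171 and 215 against 1794, 127 and 337. Sums over 8 endothelial markers were 6118, 4315 and 1636 in PICs and 4340, 3160 and 2834 in satellite cells, and 0 of them were called (limma; the largest size of difference was 0.29). Over 4 Schwann markers they ranged from 336 to 443 in PICs and from 63 to 146 in satellite cells, with Foxd3 at the low value level. Over 9 markers of differentiating muscle they ranged from 1241 to 3109 in PICs and from 41302 to 49869 in satellite cells, although Tnnt3 was 7.15-fold higher in PICs and Ckm differed by 1.99 (adjusted p = 0.0832 by limma). The 20 immediate early genes, induced within minutes of a stimulus, summed to 99511, 147089 and 232119 in PICs and 105709, 147562 and 196070 in satellite cells. Replicate 1 was the lowest array for 18 of the 19 tested in PICs and for all 19 in satellite cells, where it was also the lowest for 44 of the 47 mitotic genes. The satellite cell markers were highest on PIC replicate 1 for 7 of 8, with a median gap of 1.49 to the other PIC arrays. Their part in the levels of the mitotic genes was not tested. Without both arrays numbered 1 the median difference of the members was -1.93 and 45 were called.

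Other genes of mitosis, from a further list of 62, followed the same direction. Satellite cells had the higher level for 50 of 60 tested and PICs for 0, against 13.0% and 16.7% of all genes. The median was -1.89 (-1.88 with Pmf1, whose PIC arrays were at or under the low value level, set to its bound). Foxm1, the transcription factor that drives late cell cycle genes, was 6.75-fold higher in satellite cells (adjusted p = 0.00114 by limma), and Mybl2, which encodes B-Myb, 3.31-fold. Cenpm of the inner kinetochore, Nsl1 of the Mis12 complex and the spindle protein gene Spag5 had the largest fitted differences, at -2.93, -2.90 and -2.89; the PIC levels of Cenpm (4.14) and Nsl1 (4.08) lay close to the low value level. The condensin genes Ncapd2, Ncapg, Smc4 and Smc2, which compact chromosomes, differed by -2.32, -2.07, -1.61 and -1.42. The 10 genes not called had differences from -1.78 to -0.11. They included the kinetochore genes Cenpo at -0.11 (95% interval -0.62 to 0.40) and Zwint at -0.33 (-0.82 to 0.16), and Knl1, which lay between 4.52 and 7.32 on the PIC arrays (-1.78, adjusted p = 0.125 by limma). At equal replicate number Knl1 differed by -1.40, -1.42 and -2.52. With the replicate number as a block, 54 were called: Knl1 (adjusted p = 0.00421 by limma), Cenpl, Fam83d and Mad1l1 gained a call.

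The anaphase-promoting complex and cohesin also act in mitosis. With the 2-fold threshold, the share of their genes called was near the 13.0% of all genes. With the adjusted p alone, 7 of 10 cohesin genes and 3 of 13 of the complex were higher in satellite cells, against 28.6%. Of 13 core genes of the anaphase-promoting complex and its other activator, 1 was called higher in satellite cells, Anapc7 (-1.05), and 0 higher in PICs, with a median of -0.32. Cdc16 was at 0.57 (95% interval 0.12 to 1.02) and Anapc5 at 0.05 (-0.23 to 0.33). Of 10 cohesin genes, which encode the ring that holds sister chromatids and its loaders and release factors, 1 was called, Rad21, the subunit that separase cuts (2.01-fold), and the median was -0.53. All satellite arrays lay above all PIC arrays for 7 of the 10 cohesin genes and 5 of the 13 of the complex, against 33.2% of all genes, and below them for 1 and 2. Pds5b, a cohesin regulator, was at 0.51 (95% interval 0.07 to 0.94, adjusted p = 0.0504 by limma). Both calls sit at the 2-fold threshold: Anapc7 was not called without PIC replicate 1, nor Rad21 without PIC replicate 2 or 3 or satellite replicate 2 or 3. Whether these lists differ from the spindle and kinetochore genes was not tested.

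**Figure D4:**
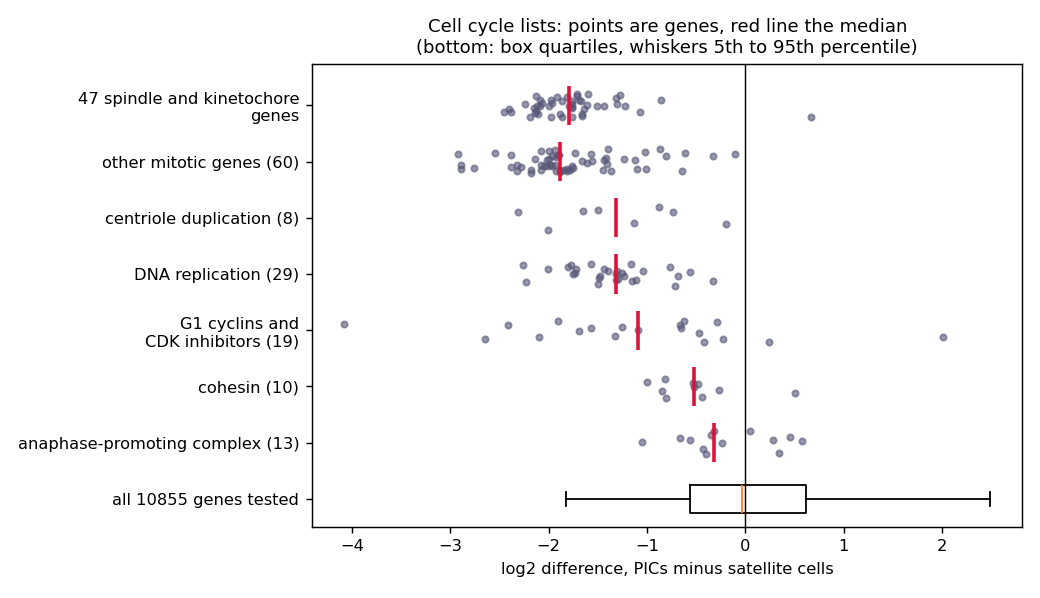
Log2 difference, PICs minus satellite cells, for each gene of the mitotic and other cell cycle lists (points, with the number of genes tested in brackets) and their medians (red lines); the box shows quartiles and the 5th to 95th percentiles of all genes tested. Medians run from -1.89 for other mitotic genes to -0.32 for the anaphase-promoting complex.

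For DNA replication, the preceding phase, 24 of 29 tested genes were called for satellite cells and 0 for PICs. The shares of all genes were 13.0% and 16.7%, and the median difference of the 29 was -1.32. Tyms, which makes thymidylate, is among the 24, but none of its PIC arrays exceeded the low value level, so it passed the filter through satellite cells alone; the median was the same with it at its bound. In all 29 the satellite arrays lay above the PIC arrays, as they did for 33.2% of all genes. Uhrf1, which keeps DNA methylation through replication, and the origin factors Mcm10 and Cdc45 differed by -2.26, -2.23 and -2.01, and the licensing factor Cdc6 by -1.80. Satellite replicate 1 was lowest for 20 of these 29 genes, with a median gap of -0.17 to the other satellite arrays. Among 8 genes of centriole duplication 5 were called, all higher in satellite cells, with Cenpj at -2.31 and Cep152, which recruits Plk4 to the centriole, at -1.66.

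Of the 19 G1 cyclins, CDK inhibitors and related genes, 10 were called for satellite cells and 1 for PICs. The shares of all genes were 13.0% and 16.7%. E2f2, a transcription factor of S phase entry, differed most, at -4.08 (95% interval -5.21 to -2.94). Rb1 came next, at -2.65 (95% interval -2.94 to -2.36). Ccne1 and Cdk2, the kinase pair of the start of S phase, differed by -2.10 and -1.90. Cdkn1a, which encodes the inhibitor p21, was also higher in satellite cells (-2.42). Ccnd2, a D-type cyclin, was the gene called higher in PICs, by 4.03-fold (2.01, adjusted p = 0.000924 by limma). Cdkn1b, which encodes the inhibitor p27, was at -0.23 (95% interval -0.49 to 0.04).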

How the data were processed

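Total RNA of each sorted population was hybridised to Affymetrix mouse expression arrays, 3 per population. Values are the deposited linear intensities, made with GCRMA (background correction, quantile normalization and probe summary) per the submitters' processing notes, and hold whole numbers with a median of 10 on each array; no version or further setting is given in the sources used here. GCRMA equalises the distribution of values between arrays, so a difference is relative to all genes. Of 45037 probe sets, 34945 had 1 gene symbol in GEO's platform annotation and were used, 932 had several and 9160 none listed; symbols were updated through 34741 matched gene numbers.

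Values were put on the log2 scale, probe sets above 4 on at least 3 of 6 arrays were kept, and the probe set with the highest mean stood for its gene. Limma 3.58.1 in R 4.3.3 (lmFit, eBayes, two-sided) compared the populations over 10855 genes with Benjamini-Hochberg adjustment; the script was tested on simulated data. With 3 arrays a population, the number of arrays limits the precision.

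Deviations from the population means correlated at 0.623, 0.222 and 0.579 for arrays of equal number and at -0.568 to 0.04 otherwise. Deviations cancel within a population, so the contrast between these ranges is in part built in. Over the 47 members the values at equal number were 0.373, 0.451 and 0.374. Arrays of equal number thus varied alike, and the labels state no pairing. Intervals and adjusted p-values are from the fit without pairing, except where the replicate block is named. Alternatives covered the filter, probe set choice, the replicate number as a block, the variance model, array weights, scaling, the call rule and left-out arrays. Named genes were, per role, the largest difference in each direction, that closest to 0, every member against the majority and landmark genes, with up to 4 called genes per other list in each direction; the condensin genes, Mybl2, Zwint, Cenpo, Knl1, Cenpl, Fam83d, Mad1l1, Tyms, Cdc16, Anapc5, Pds5b and Cdkn1b were added after their values were seen. Cdk2 lies outside this rule and was named with its partner Ccne1. The members and lists were chosen with earlier results of these data known.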

Additional observations from a re-analysis of the deposited data

How the results depend on the processing

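Over 20 alternatives, 41 to 46 members were called higher in satellite cells and the median difference stayed between -1.98 and -1.71. Of 939 values of single members 930 kept their call and direction, and 0 reversed. With the adjusted p alone, members higher in PICs numbered 1 (Pttg1), genes of the anaphase-promoting complex 3 for satellite cells and 1 for PICs, and cohesin genes 7 for satellite cells. By the same rule 28.6% of all genes were higher in satellite cells and 27.6% in PICs. Leaving out each array in turn gave 44 to 45 members, 0 to 1 gene of the anaphase-promoting complex and 0 to 1 cohesin gene, so the calls of Anapc7 and Rad21 depend on single arrays. Without both arrays numbered 2, 41 members, 0 genes of the complex and 0 cohesin genes were called; without both numbered 3, 0 cohesin genes. With the replicate block, 45 members were called for satellite cells and 0 for PICs, and no call of a member changed; among the other cell cycle lists, 4 mitotic genes gained a call and no other call changed. Other mitotic genes called ranged from 46 to 55, replication genes from 23 to 27 and G1 genes from 7 to 15. Quantile normalization between arrays moved the median of all genes from -0.04 to -0.11. Intensities near the low value level understate differences, and no level of one probe set was compared with another's.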

Other observations

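Of the 82 member probe sets that passed the filter, 2, both other than the one used for their gene, read at least 1 log2 unit lower on both arrays numbered 3 than on the other arrays of their population (2.44%, against 2.59% of all 18433 probe sets that passed the filter). A Cenpe probe set gave intensities of 83, 89 and 23 in PICs and 291, 372 and 97 in satellite cells. A Plk4 probe set gave 80, 85 and 18 against 317, 248 and 57. For both, the satellite array exceeded the PIC array at every replicate number.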
